A study of Mus musculus with 6 samples.

Results

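Trp53, Cdkn2a, Cdkn2b, Mdm4, Trp63 and Trp73 were followed through mouse liver tumour cell lines of 2 genotypes. The 6 genes were taken by symbol from a table of raw read counts for 53465 genes. A count filter kept 4 of them, Trp53, Cdkn2a, Cdkn2b and Mdm4, among the 11510 genes that were tested, while Trp63 and Trp73 fell below it and are given as counts. RNA was sequenced from 3 cell lines labelled Myc_Utx (2A, 2B and 2D) and 3 labelled Myc_p53 (1, 2 and 3). The study describes 3 independent lines per group, derived from liver tumours of adult female C57BL/6 mice, and each is taken here as 1 biological replicate. The labels give neither tumour nor animal, and all Myc_Utx labels share the number 2. Whether those lines share an animal is not stated. All tumours carried a Sleeping Beauty transposon driving Myc from the EF1a promoter, delivered by hydrodynamic tail vein injection together with a plasmid for transient expression of Cas9 and 1 guide RNA. Utx in the label Myc_Utx is the histone H3K27 demethylase encoded by Kdm6a, and the study describes guides against Kdm6a. The labels name no guide, and the Myc_p53 lines are named here as labelled. For RNA sequencing, the results and figure legends of the study name Kdm6a lines, whereas its methods name Mll3 (Kmt2c) lines. It also reports loss of Kdm6a protein in tumour-derived lines edited for Kdm6a. The groups here follow the labels. Both groups therefore share Myc and Cas9, and neither is an unedited control, so that a difference between them cannot be assigned to 1 of the 2 edits.

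Trp53 encodes the transcription factor p53, which halts the cell cycle or triggers cell death after DNA damage or oncogene activation. The protein is kept at a low level by the ubiquitin ligase Mdm2 and by its partner Mdm4. The Cdkn2a gene encodes 2 unrelated proteins from overlapping reading frames, p19Arf, which restrains Mdm2, and p16Ink4a, which inhibits the kinases CDK4 and CDK6. The adjacent Cdkn2b encodes p15Ink4b, another inhibitor of these kinases, while Trp63 and Trp73 encode p63 and p73, relatives of p53 with their own roles in epithelia and in neural development.

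The way the 2 proteins of Cdkn2a share their message decides what a gene-level count can show, and both splice junctions are given for this reason. In the GENCODE M21 annotation of GRCm38, Cdkn2a lies on the minus strand at chr4:89274471-89294653. Exon 1 of the p19Arf transcript is at chr4:89294334-89294653 and exon 1 of the p16Ink4a transcript at chr4:89281986-89282192. Both are spliced to the same 341 base exon 2 at chr4:89276645-89276985, which they read in different frames. The last 30 bases of each exon 1 are in lower case and the first 30 bases of exon 2 in capitals.
p16Ink4a: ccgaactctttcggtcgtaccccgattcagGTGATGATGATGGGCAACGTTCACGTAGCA
p19Arf: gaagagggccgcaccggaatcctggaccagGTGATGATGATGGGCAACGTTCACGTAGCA
Of the 1172 exonic bases of the gene, 575 bases (49.1%) belong to both transcripts, 320 bases only to p19Arf and 277 bases only to p16Ink4a. The counts are summed over the gene, hence they do not separate the 2 products.

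The products also start from separate promoters. A stretch of each is shown because the p19Arf promoter, but not the p16Ink4a promoter, held an E2F motif in the window searched. The excerpts run from 160 to 41 bases before the RefSeq start site (GRCm38.p6, minus strand), at chr4:89294660-89294779 for p19Arf and chr4:89282233-89282352 for p16Ink4a, with the motif in capitals.
p19Arf promoter: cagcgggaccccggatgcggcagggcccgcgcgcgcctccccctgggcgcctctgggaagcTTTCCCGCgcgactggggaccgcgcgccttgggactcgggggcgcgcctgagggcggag
p16Ink4a promoter: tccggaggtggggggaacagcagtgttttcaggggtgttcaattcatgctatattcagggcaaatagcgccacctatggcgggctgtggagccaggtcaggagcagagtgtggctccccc
The E2F motif was searched as TTTGGCGC, TTTCGCGC, TTTCCCGC or TTTGCCGC on both strands, and 2.26% of all 32851 RefSeq promoter windows (250 bases before to 50 bases after the start) held one. A second motif, the E-box CACGTG that Myc binds, was present in 7.15% of the windows. Of the members it was found only for Trp53, at chr11:69580369-69580374, and is shown in capitals in the 30 bases of chr11:69580357-69580386 on the plus strand.
Trp53 start region: actttcccctccCACGTGctcaccctggct
RefSeq windows were at hand for 5 of the 6 genes, all except Trp63. These letters describe the windows and are no evidence of binding.

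Total counts per library ranged from 4656103 to 6937497. Values are given as counts per 1000000 library reads normalised with TMM (CPM), as mean ± SD of 3 lines, and log2 fold changes are Myc_Utx over Myc_p53 with their standard error (SE) from the quasi-likelihood test of edgeR, adjusted by Benjamini-Hochberg over all 11510 genes. At an adjusted p under 0.05, a gene is referred to as called. Of all tested genes 14.7% were called, 6.99% as higher and 7.69% as lower in Myc_Utx, and higher calls made up 47.6% of them (37.3% with total counts only in place of TMM). A transcript need not fall when a guide introduces small insertions or deletions. Kdm6a, the gene named by the label Utx, had 199, 244 and 220 counts in Myc_Utx 2A, 2B and 2D. It had 440, 348 and 298 counts in Myc_p53 1, 2 and 3. Its log2 fold change was -0.39 (SE 0.217, adjusted p = 0.243, edgeR), and the groups overlapped after normalisation. Kmt2c, named after its values were seen, had 349, 411 and 389 counts in Myc_Utx and 939, 625 and 851 counts in Myc_p53 lines, in the same order, without overlap. Its log2 fold change was -0.73 (SE 0.148, adjusted p = 0.0289, edgeR), but -0.32 and not called with offsets for transcript length and GC content, and its call held in only 1 of the 6 fits that each omit a line. Neither transcript settles which gene was edited in the lines labelled Myc_Utx. The lines are labelled as liver cells, but 7 hepatocyte markers summed to no more than 18.6 CPM in any line. Alb had at most 26 counts. Hnf4a had 3, 3 and 0 counts in Myc_Utx 2A, 2B and 2D and 64, 8 and 47 in Myc_p53 1, 2 and 3. It was below the count filter, and its groups did not overlap. Apoa1, also below the filter, had the reverse order, with at most 5 counts. The hepatocyte markers listed were thus low in every line. The sum of 5 biliary markers was between 153 and 1462 CPM, and Spp1 was its largest part in every line. Krt19 had 234, 25 and 129 counts in Myc_Utx 2A, 2B and 2D and 2088, 325 and 2468 in Myc_p53 1, 2 and 3. Its groups did not overlap, but it was not called (-3.22, adjusted p = 0.0653, edgeR). Krt7 had at most 2 counts in Myc_Utx lines and 100, 3 and 459 in Myc_p53 1, 2 and 3. Epcam had at most 13 counts in Myc_Utx and 34 in Myc_p53 lines. Sox9 and Spp1 overlapped between the groups, with higher means in Myc_Utx. The sum of 6 fibroblast or stellate markers was between 31.4 and 644 CPM, and no cell type is assigned to the lines from these lists.

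Trp53 (ENSMUSG00000059552, chr11:69580359-69591873, plus strand) was the gene with the lowest p of all 11510 tested. Myc_Utx lines 2A, 2B and 2D had 1475, 1578 and 1239 counts, or 294.2, 295.5 and 275.9 CPM. Myc_p53 lines 1, 2 and 3 had 205, 186 and 251 counts, or 32.4, 34.5 and 35.8 CPM. All Myc_Utx lines were high and all Myc_p53 lines low, and within each group the lines were close together, the highest exceeding the lowest by a factor of 1.07 in Myc_Utx and 1.10 in Myc_p53. The means of 288.5 ± 10.9 CPM and 34.2 ± 1.71 CPM (n = 3 each) differed 8.43-fold, so that Myc_p53 lines held 11.9% of the Myc_Utx level. The log2 fold change was 3.07 (SE 0.106, 95% interval 2.82 to 3.33, adjusted p = 0.000488, edgeR). An exact two-sided permutation test gave p = 0.1, the smallest that 3 lines against 3 allow. Trp53 remained called in each of the 12 alternative fits and was among the 3 genes still called higher when Myc_Utx 2A was left out.

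The reads that remained in Myc_p53 lines stayed well above the counting floor, at 186 counts or more, and gene-level counts do not show whether they carry an edit. In a bulk sample, fewer cells with the transcript cannot be told apart from less transcript per cell. The annotated pseudogene Trp53-ps had at most 2 counts in any line. The sum of 6 macrophage markers moved with the genotype. It was between 2.79 and 5.99 CPM in Myc_Utx lines and 94.5, 36.0 and 100.5 CPM in Myc_p53 lines 1, 2 and 3. Csf1r, C1qa, C1qb and Lyz2 were called lower in Myc_Utx by edgeR, and Adgre1 was below the count filter. Cd68 overlapped between the groups and was not called (-0.76, adjusted p = 0.300, edgeR). The pan-leukocyte gene Ptprc had at most 3 counts in any line. The part of these markers in the differences between the genotypes was not tested.

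**Figure D1:**
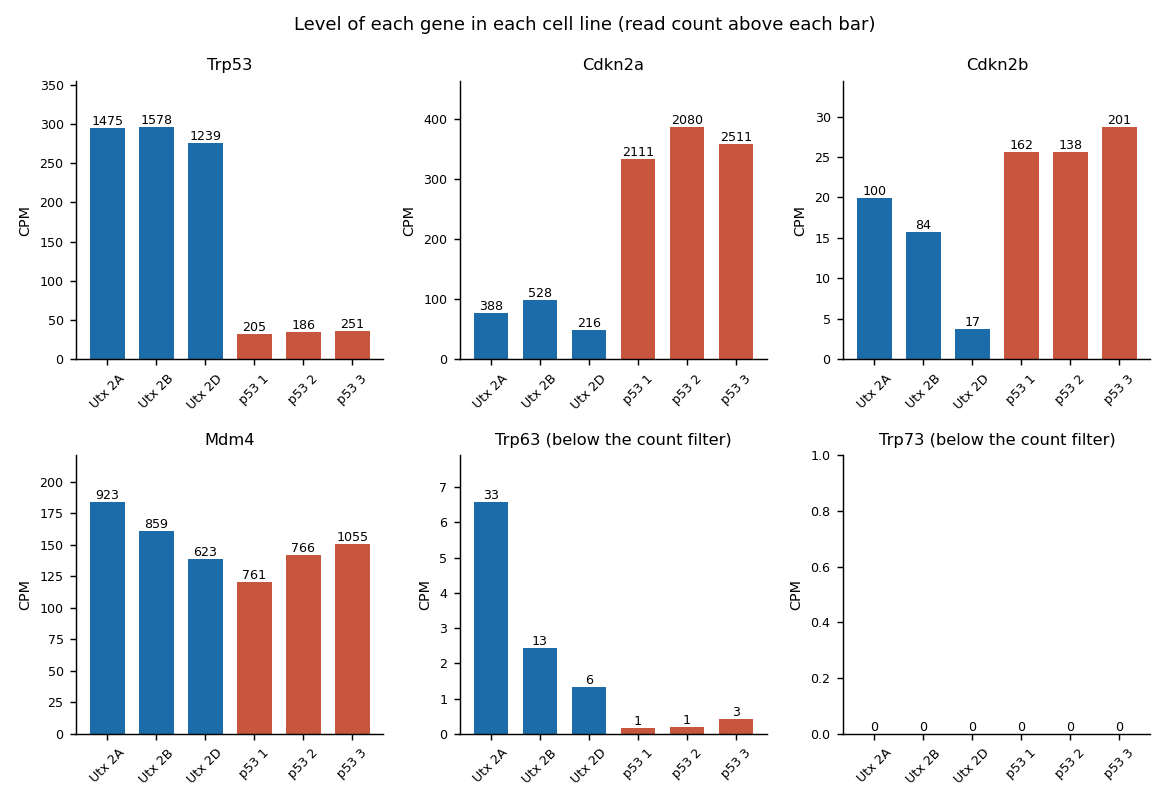
Bars show TMM-normalised levels (CPM, linear axis from 0) of each of the 6 genes in each of the 6 cell lines, Myc_Utx in blue and Myc_p53 in red, with the raw read count above each bar; each panel has its own scale. Trp53 is near 290 CPM in blue and near 34 CPM in red bars, Cdkn2a has the opposite order, Mdm4 bars overlap in height, and Trp73 is at 0 throughout.

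Cdkn2a (ENSMUSG00000044303) had the reverse pattern. Counts were 388, 528 and 216 in Myc_Utx 2A, 2B and 2D, corresponding to 77.4, 98.9 and 48.1 CPM. They were 2111, 2080 and 2511 in Myc_p53 1, 2 and 3, corresponding to 333.6, 385.5 and 358.0 CPM. Thus all Myc_p53 lines lay above all Myc_Utx lines, and the Myc_Utx lines differed more among themselves, by a factor of 2.06 against 1.16, with 2D the lowest. The mean was 74.8 ± 25.5 CPM in Myc_Utx and 359 ± 26 CPM in Myc_p53 (n = 3 each), 4.80-fold higher in the latter. The log2 fold change was -2.26 (SE 0.262, 95% interval -2.89 to -1.63, adjusted p = 0.0137, edgeR), with an exact permutation p = 0.1. The size of the difference hardly changed without Myc_Utx 2A (-2.27) or without Myc_p53 3 (-2.27), but the adjusted p rose to 0.0617 and 0.05001 in these edgeR fits and the call was lost.

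A comparison that needs no normalisation is the ratio of 2 genes within a line. Cdkn2a had 0.263, 0.335 and 0.174 counts for each Trp53 count in Myc_Utx 2A, 2B and 2D. In Myc_p53 1, 2 and 3 the ratio was 10.3, 11.2 and 10.004. The ratio was therefore higher in every Myc_p53 line than in any Myc_Utx line (exact permutation p = 0.1, the smallest possible). This order already follows from the separate levels of the 2 genes, so the permutation test adds nothing to them. As the genes differ in exonic length, the ratio compares lines and does not rank the 2 transcripts.

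Cdkn2b (ENSMUSG00000073802, chr4:89306289-89311032, minus strand) lies 11.6 kb from Cdkn2a. It was at 19.9, 15.7 and 3.79 CPM in Myc_Utx 2A, 2B and 2D, from 100, 84 and 17 counts. In Myc_p53 1, 2 and 3 it was at 25.6, 25.6 and 28.7 CPM, from 162, 138 and 201 counts. The groups did not overlap, as was the case for 42% of all tested genes, but Myc_Utx 2D stood far below the other two lines of its group, which spanned a factor of 5.27 compared with 1.12 in Myc_p53. The log2 fold change of -1.01 (SE 0.535, 95% interval -2.30 to 0.27, adjusted p = 0.226, edgeR) did not pass the threshold, and it was -0.56 without Myc_Utx 2D. The interval includes both no difference and a difference as large as that of Cdkn2a. Cdkn2a counts per Cdkn2b count were 3.88, 6.29 and 12.7 in Myc_Utx 2A, 2B and 2D and 13.0, 15.1 and 12.5 in Myc_p53 1, 2 and 3, so that the ratio of these neighbours overlapped between the groups (exact permutation p = 0.2).

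Mdm4 (ENSMUSG00000054387, chr1:132959484-133030561, minus strand), which binds p53 and blocks its activity, was at 184.1, 160.8 and 138.7 CPM in Myc_Utx 2A, 2B and 2D. In Myc_p53 1, 2 and 3 it was at 120.3, 142.0 and 150.4 CPM. The lines of the genotypes interleaved, and the means of 161.2 ± 22.7 and 137.6 ± 15.6 CPM (n = 3 each) differed by a log2 fold change of 0.23 (SE 0.149, 95% interval -0.13 to 0.59, adjusted p = 0.313, edgeR). Mdm4 has 14798 exonic bases, and with offsets for transcript length and GC content the log2 fold change was 0.51 (adjusted p = 0.0545, edgeR), still not called. Relative to Mdm4, Trp53 had 1.598, 1.84 and 1.99 counts in Myc_Utx 2A, 2B and 2D and 0.269, 0.243 and 0.238 counts in Myc_p53 1, 2 and 3, without overlap. A gene that overlaps Mdm4 on the opposite strand, Gm29257, had at most 5 counts in any line.

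The 2 relatives of p53 were scarce or not detected. Trp63 (ENSMUSG00000022510, chr16:25683763-25892102, plus strand) had 33, 13 and 6 counts in Myc_Utx 2A, 2B and 2D and 1, 1 and 3 counts in Myc_p53 1, 2 and 3. All Myc_Utx lines were above all Myc_p53 lines, while the Myc_Utx lines themselves ranged from 1.34 to 6.58 CPM. The summed 52 and 5 counts gave a ratio of 13.1 (95% exact interval 5.28 to 42.1), which covers counting error only and not the spread between lines. In the fit without a filter on low counts, the log2 fold change was 3.64 (SE 0.825, adjusted p = 0.0318, edgeR). The filter kept Trp63 in 4 of the fits that each omit a line, where it was not called (adjusted p = 0.0671 to 0.0881, edgeR). Of the 4 squamous markers listed for comparison, whose tissue is known for p63, Krt5 had at most 2 counts. Krt14 had 5, 20 and 0 counts in Myc_Utx 2A, 2B and 2D and 1, 4 and 14 in Myc_p53 1, 2 and 3. The sum of the 4 was between 0 and 4.12 CPM in Myc_Utx and between 0.158 and 2.14 CPM in Myc_p53 lines. Trp73 (ENSMUSG00000029026, chr4:154056253-154140208, minus strand) had 0 counts in all 6 lines, which at 3 counts per library allows levels of up to 0.428 to 0.668 CPM. Genes overlapping Trp63 (Gm24928 and Gm27005) and Trp73 (Trp73os and Gm26036) were at 0 counts throughout.

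Thus 2 of the 4 tested members were called, 1 in each direction, where 14.7% of all tested genes were called, and 3 of the 4 did not overlap between the groups, as was the case for 42% of all tested genes. The order of the genes by level, which requires a scale per length, was examined in CPM per kb of exonic sequence. In Myc_Utx lines, Trp53 was at 71.3 ± 2.70 and Cdkn2a at 63.8 ± 21.7 CPM per kb, and their ranges overlapped. Mdm4 at 10.9 ± 1.53 and Cdkn2b at 9.44 ± 6.02 CPM per kb followed, again with overlapping ranges, and Trp63 was at 0.411 ± 0.330 CPM per kb. In Myc_p53 lines Cdkn2a led at 306.4 ± 22.2 CPM per kb, and Cdkn2b at 19.1 ± 1.27 CPM per kb was second. Mdm4 at 9.30 ± 1.05 and Trp53 at 8.46 ± 0.423 CPM per kb did not differ beyond their spread. Trp53 hence shared the first place with Cdkn2a in Myc_Utx lines and stood next to Mdm4 in Myc_p53 lines. The length is that of all annotated exons together, so a gene with many alternative exons is placed too low on this scale.

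**Figure D2:**
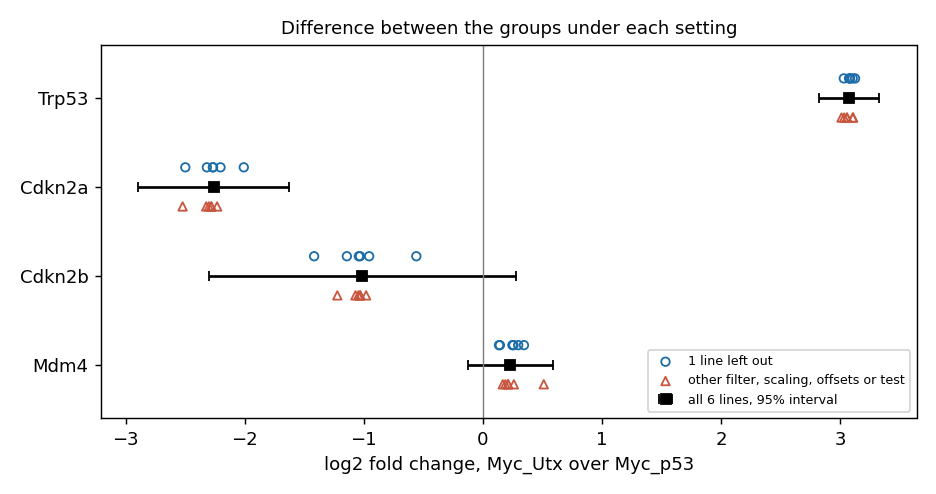
Squares show the log2 fold change of the 4 tested genes, Myc_Utx over Myc_p53 (horizontal axis), with its 95% interval, circles the 6 fits with 1 cell line left out, and triangles the 6 fits with another filter, scaling, offset or test. Trp53 stays between 3.01 and 3.12, Cdkn2a between -2.52 and -2.01, Cdkn2b between -1.42 and -0.56 and Mdm4 between 0.13 and 0.51.

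Regulators of p53 other than Mdm4 were read from a list of 26 genes, all of them tested. Of these 3 were called higher in Myc_Utx, none was called lower by edgeR (3 at an unadjusted p under 0.05 and 3 by DESeq2), and the median log2 fold change was 0.10, compared with -0.01 over all tested genes. Mdm2, the main ubiquitin ligase of p53 and itself a p53 target, had 1255, 1790 and 860 counts in Myc_Utx 2A, 2B and 2D and 261, 285 and 435 counts in Myc_p53 1, 2 and 3. Its level was higher in every Myc_Utx line, with a log2 fold change of 2.31 (SE 0.255, adjusted p = 0.0127, edgeR). The other two called genes were Ppp1r13l, which encodes the p53 inhibitor iASPP (0.94, SE 0.209, adjusted p = 0.0356, edgeR), and Npm1, a nucleolar binding partner of p19Arf (0.85, SE 0.165, adjusted p = 0.0272, edgeR). The called share of 11.5% was below that of all genes. Calls depended on single lines, in this list as over the whole table. None of the list was called without Myc_Utx 2A, where 4 of all 12064 tested genes were called. As higher, 1 gene each was called without Myc_Utx 2B, without Myc_Utx 2D and without Myc_p53 3. Over all 12058, 12127 and 11714 genes tested in these fits, 43, 43 and 63 were called higher. Within lines, Mdm2 had 1.36, 2.08 and 1.38 counts per Mdm4 count in Myc_Utx 2A, 2B and 2D and 0.343, 0.372 and 0.412 in Myc_p53 1, 2 and 3. All Myc_Utx lines thus had the higher ratio, which is not scaled to length and does not rank the 2 genes.

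Known regulators of the Ink4/Arf locus were a list of 26 genes, 25 of them tested, which includes Polycomb proteins that silence the locus and transcription factors that induce it. Bmi1 (log2 fold change 0.62, adjusted p = 0.0392), Ring1 (0.85, adjusted p = 0.0459) and Eed (0.68, adjusted p = 0.0213), all subunits of Polycomb complexes, were called higher in Myc_Utx by edgeR. Cbx7, another Polycomb subunit, was called lower (-1.60, adjusted p = 0.0379, edgeR). The called share was 16%, close to the background, and the median log2 fold change was -0.04. No Myc difference was called (-0.16, adjusted p = 0.667, edgeR), and E2f1 was at -0.04 (adjusted p = 0.920, edgeR). Gene-level counts do not show whether the Myc value includes reads from the transposon. With offsets for transcript length and GC content, Bmi1 (adjusted p = 0.0606), Ring1 (0.0572) and Cbx7 (0.0565) were not called by edgeR, which left 1 gene of the list called higher. Ring1 was also not called without a filter on low counts (adjusted p = 0.0773, edgeR) or with total counts only (0.0577). None of the higher calls held without Myc_Utx 2A, 2B or 2D or without Myc_p53 3, where 3, 43, 43 and 63 genes of the whole table were called higher. Without Myc_p53 1 or 2, 1 held, where 481 and 836 genes of the whole table were called higher. Of the 6 fits that each omit a line, the call of Cbx7 held in 1.

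**Figure D3:**
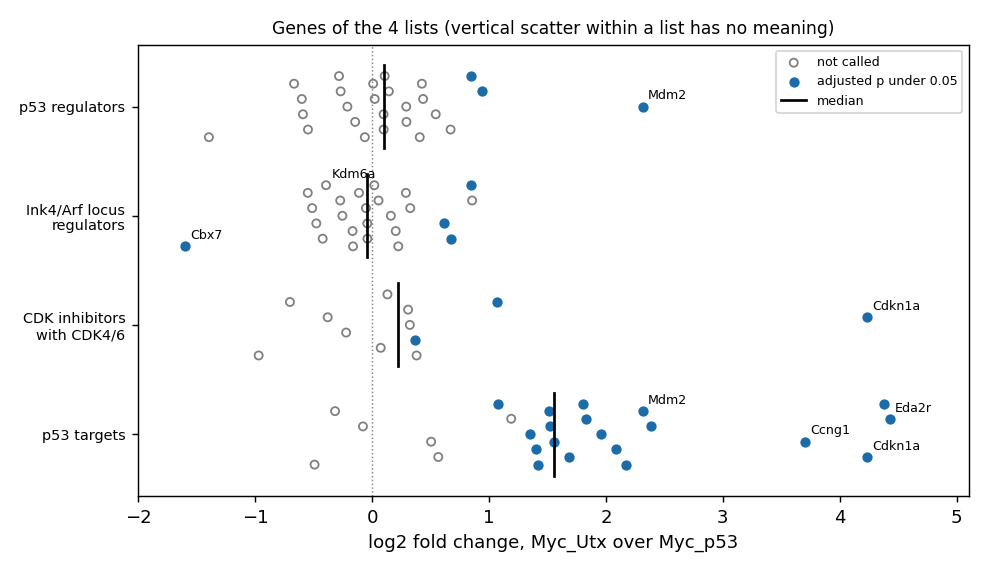
Each point is 1 tested gene of the list named at the left, placed by its log2 fold change, Myc_Utx over Myc_p53; filled points have an adjusted p under 0.05 and black bars are list medians. The p53 targets lie mainly to the right with a median of 1.56, whereas the other lists have medians between -0.04 and 0.22.

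Downstream of the Ink4 proteins, 12 of 13 genes around CDK4 and CDK6 were tested, of which 3 were called higher and none lower by edgeR (25.0% against 14.7% of all tested genes, median 0.22). At an unadjusted p under 0.05, 1 gene was lower, and DESeq2 also called 1 lower. Cdkn1a, which encodes the CDK inhibitor p21 and is a direct p53 target, had 1507, 1604 and 1093 counts in Myc_Utx 2A, 2B and 2D and 81, 29 and 185 counts in Myc_p53 1, 2 and 3. Every Myc_Utx line was higher, and the log2 fold change was 4.23 (SE 0.543, adjusted p = 0.0156, edgeR). Cdkn2c, encoding p18Ink4c, was also higher (1.07, adjusted p = 0.0185, edgeR), as was Cdk4 (0.37, adjusted p = 0.0496, edgeR), whose call was lost whichever of the 6 lines was omitted and in 5 of the 6 others. Cdkn2c thus differed in the direction opposite to Cdkn2a. None of the 3 was called without Myc_Utx 2A, 2B or 2D, where 3, 43 and 43 genes of the whole table were called higher. Without Myc_p53 3, 1 was called, and 63 were called higher over the whole table.

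Among 25 p53 targets, all tested, 19 were called higher in Myc_Utx and none lower by edgeR (0 also at an unadjusted p under 0.05 and by DESeq2), which is 76.0% against 6.99% of all genes, and the median log2 fold change was 1.56. The list was drawn up with earlier results of these data known. The largest differences were those of Eda2r, a death receptor (4.43), Phlda3, an inhibitor of Akt (4.37), Cdkn1a (4.23) and Ccng1, encoding cyclin G1 (3.70, adjusted p = 0.00511, edgeR). Ccng1 had 5144, 4426 and 2436 counts in Myc_Utx 2A, 2B and 2D and 354, 370 and 420 counts in Myc_p53 1, 2 and 3. It remained called whichever line was omitted. The log2 fold changes of the called genes were from 1.08 (Polk) to 4.43, and those of the other 6 genes were from -0.49 (Plk2) to 1.19 (Fas). The count of called genes fell to 1 without Myc_Utx 2A, 7 without Myc_Utx 2B, 11 without Myc_Utx 2D and 12 without Myc_p53 3.

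The chromosomal surroundings were inspected to see whether the differences extended beyond the members. Within 200 kb of Trp53 lay 35 genes of the table, 14 of which were tested. Wrap53, which lies 104 bases from Trp53 on the opposite strand, had 116, 109 and 120 counts in Myc_Utx 2A, 2B and 2D and 124, 122 and 115 counts in Myc_p53 1, 2 and 3. Its log2 fold change was 0.26 (adjusted p = 0.399, edgeR), and the difference of Trp53 was thus not seen at its divergent neighbour. The next genes kept by the filter, Efnb3 at 20.2 kb on the same side and Fxr2 at 41.1 kb and Mpdu1 at 64.8 kb on the other, had log2 fold changes of -0.0016, -0.095 and -0.17, none of them called. The genes called in this region, Tnfsf12 (-4.47, adjusted p = 0.0179, edgeR) and Zbtb4 (-2.31, adjusted p = 0.0177, edgeR), were lower in Myc_Utx, the direction opposite to Trp53. They are named for this and were picked after their values had been seen. Each call held in 2 of the 6 fits that each omit a line. Tnfsf12 had 0, 2 and 1 counts in Myc_Utx 2A, 2B and 2D and 30, 20 and 44 in Myc_p53 1, 2 and 3.

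Around Cdkn2a and Cdkn2b lay 11 genes, 3 of them tested and all on the side of Cdkn2a. Mtap, which encodes an enzyme of methionine salvage and is often lost together with CDKN2A in human tumours, lies 93.4 kb away. It had 2859, 3094 and 2239 counts in Myc_Utx 2A, 2B and 2D and 1561, 1411 and 1660 counts in Myc_p53 1, 2 and 3. All Myc_Utx lines were above all Myc_p53 lines, with a log2 fold change of 1.15 (SE 0.107, adjusted p = 0.0103, edgeR), the direction opposite to Cdkn2a. The call was lost only without Myc_Utx 2A (adjusted p = 0.0614, edgeR). Gm12602 at 146 kb was called in the same direction as Mtap (1.79, adjusted p = 0.0178, edgeR). Its call held in 2 of the 6 fits that each omit a line. Much closer, 1068 bases from the end of Cdkn2a, the predicted gene Gm12606 was below the count filter, with 0, 0 and 1 counts in Myc_Utx 2A, 2B and 2D and 13, 7 and 39 counts in Myc_p53 1, 2 and 3. It is named because its counts were seen to be ordered as those of Cdkn2a.

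**Figure D4:**
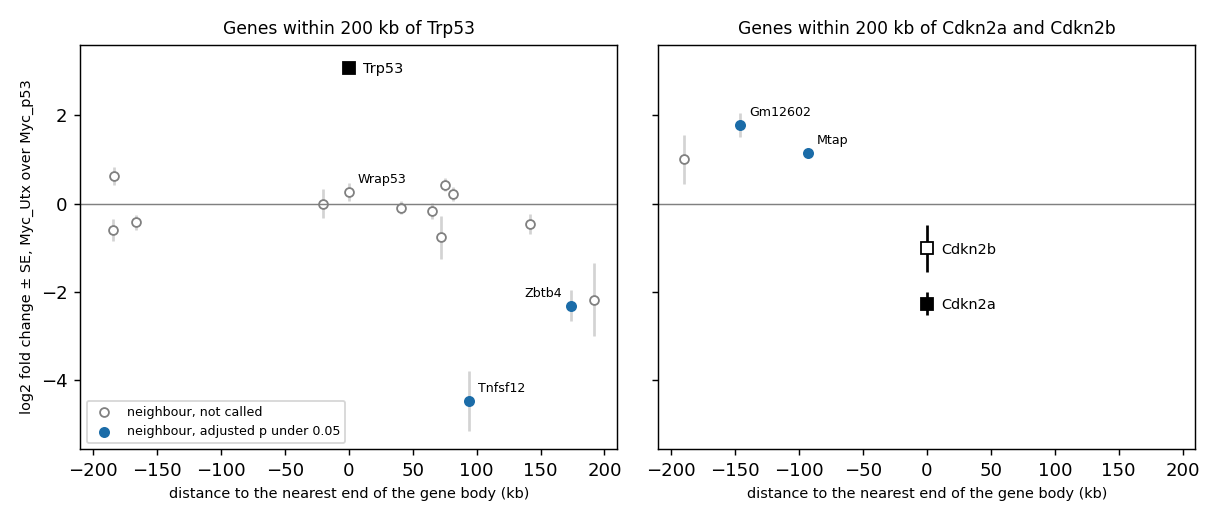
Log2 fold change ± SE, Myc_Utx over Myc_p53, of the tested genes within 200 kb of Trp53 (left panel) and of the Cdkn2a and Cdkn2b pair (right panel), against the distance in kb to the nearer end of the gene body, negative towards lower coordinates; squares are the members, filled where the adjusted p is under 0.05. Trp53 at 3.07 stands apart from Wrap53 at 0.26, and Mtap at 1.15 lies on the other side of 0 from Cdkn2a at -2.26.

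Finally, the genes whose levels followed each member most closely over the 6 lines were listed by Pearson's r of log2 CPM, among 9484 genes whose counts averaged 50 or more. With 2 groups of 3 lines such values mostly reflect the difference between the groups, and they are given as a description. For Trp53 these were Vps33b, Taldo1 and Hnrnpk, with r between 0.997 and 0.9996. Taldo1, an enzyme of the pentose phosphate pathway, was called higher in Myc_Utx (1.43, adjusted p = 0.00511, edgeR). Vps33b (0.63, adjusted p = 0.0554, edgeR) and Hnrnpk (0.33, adjusted p = 0.0539, edgeR) were not called. For Cdkn2a they were Apoe (r = 0.998), Lrrc8d (0.995) and Foxk1 (0.993), and Apoe had the same log2 fold change of -2.26 as Cdkn2a. Prkcd (0.990), Znrf1 (0.981) and Mcam (0.981) were closest to Cdkn2b, and like Cdkn2b they were lowest in Myc_Utx 2D. Tcf3 (0.998), Dennd2c (0.983) and Pcyox1l (0.982) were closest to Mdm4.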

How the data were processed

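The authors deposited raw read counts per Ensembl gene for the 6 cell lines, with gene coordinates and a transcript length. The submitters' processing notes name Trimmomatic 0.36, STAR 2.5.3a, featureCounts 1.6.3, DESeq2 1.20.0 and GRCm38 (mm10). Coordinates equalled those of GENCODE M21 for 96.1% of genes. Whether counting used strand is not given in the sources used here.

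Genes were kept by filterByExpr (minimum count 10) and compared in R 4.3.3 with edgeR 4.0.16 (TMM, quasi-likelihood F test) over the whole table. Standard errors were obtained from the log2 fold change and its F statistic. Single levels were also compared by exact permutation. Alternatives were no filter, at least 10 counts in every line, DESeq2 size factors, total counts only, length and GC offsets (splines with 5 degrees of freedom), the test of DESeq2 1.42.0, and leaving out each line. On simulated data with 199 of 11320 genes changed by 2 on the log2 scale, 76.4% were recovered and 8.43% of calls were false. In the data 14.7% of genes were called, with differences of many sizes, so these rates need not hold for them.

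Members and lists were chosen with earlier results of these data known. Named are the members; of each list up to 4 called genes per direction with the largest differences, plus Mdm2, Cdkn1a and Kdm6a; the nearest 2 tested neighbours on each side and genes overlapping a member; and the 3 genes most like each member. Exceptions are marked in the text, and further genes appear as ends of a range, as regulators not called, as markers or as a pseudogene. Promoters are from RefSeq (GRCm38.p6). Intervals and floors from counts cover counting error only.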

Additional observations from a re-analysis of the deposited data

How the results depend on the processing

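No paired analysis was possible because Myc_Utx lines are numbered 2A, 2B and 2D and Myc_p53 lines 1, 2 and 3. Over the 6 fits with 1 line left out, the log2 fold change of Cdkn2a ranged from -2.50 to -2.01, and its call was lost in 2 of them, without Myc_Utx 2A and without Myc_p53 3. Trp53 passed in all 12 alternatives, and Cdkn2b and Mdm4 in none. The number of genes called over the whole table was less stable, with 3 to 836 higher and 1 to 1118 lower when a line was left out (805 and 885 with all lines). DESeq2 called 1268 higher and 1514 lower, and 584 were lower with length and GC offsets. In both directions together, 4 genes were called without Myc_Utx 2A and 1954 without Myc_p53 2, against 1690 with all lines. The cause of these differences was not tested. Near 0, Efnb3 changed sign in 4 alternatives (0.026 without a filter, -0.14 to 0.15 with a line left out) and Fxr2 in 1 (-0.16 to 0.031). Without a filter, the median over all genes tested was -0.23 on the log2 scale, when genes of few counts entered. At the depth of these libraries and with all lines, Trp63 could be tested only without a filter on low counts, and Trp73 had no counts to test.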
